A study of Homo sapiens with 6 samples.

Results

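The genes for the constitutive subunits of the proteasome were compared between MDA-MB-453 cells with and without knockdown of DUSP6. Members were taken by symbol, as every gene whose symbol is PSMA, PSMB, PSMC or PSMD followed by a number, with the immunoproteasome and thymoproteasome subunits PSMB8, PSMB9, PSMB10 and PSMB11 left out. This gave 35 of the 22807 genes listed. MDA-MB-453 is an established HER2+ breast cancer cell line, here 1 line grown in RPMI with serum, and DUSP6 is a phosphatase that inactivates the ERK kinases. Of the 6 mRNA sequencing libraries, 3 are labelled Scrambled with the genotype WT and 3 are labelled DUSP6 Knockdown with the genotype DUSP6 KD, so that by their labels the groups differ in the siRNA alone. The study describes 3 different siRNAs against DUSP6 and 3 different scrambled controls, and the labels do not tie a library to one of them. The libraries of a group were therefore treated as replicates. Since the labels do not name separate cultures, the p-values measure the spread between these libraries, which may be technical or hold differences between siRNAs. No drug is named for either group, and no time after transfection is given in the labels.

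Each library held 45546981 to 85729785 reads, and the values below are reads scaled to the library size by the authors, on which 1 read was worth 0.0121 to 0.0202. DUSP6 itself was 209, 110 and 114 in the Scrambled libraries and 39.4, 24.5 and 35.2 in the DUSP6 KD libraries. It fell by 2.05 on the log2 scale (SE 0.25, limma adjusted p = 3.09e-04), with no overlap between the groups. Of the markers of a luminal HER2+ breast line, ERBB2, KRT8, KRT18, KRT19, FOXA1 and SPDEF were present and these 6, of which ERBB2, KRT8 and KRT18 overlap other genes over 6.93 to 17.1% of their exon sequence, summed to 3080.0 to 4158 with Scrambled siRNA and 1899 to 2087 with DUSP6 siRNA. Of the leukocyte markers, PTPRC and CD68 summed to 4.47 to 5.49 and 3.45 to 5.48, and the 3 endothelial markers stayed at or below 0.402 in sum. Of the fibroblast markers, COL1A2 did not exceed 0.134, and COL1A1 was 80.7 to 105 in Scrambled and 162 to 192 in DUSP6 KD libraries. CD3E and DCN were not analysed here. Among the Scrambled libraries, replicate 3 stood apart from the other two for the genes described here, and counts and calls that change without it are given both ways. The part of these marker differences in the results below was not tested, and in RNA from whole cultures, fewer expressing cells and less RNA per cell cannot be told apart.

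The proteasome is the main protease for proteins tagged with ubiquitin. Its barrel, the 20S core, stacks rings of alpha subunits (PSMA genes), which gate the entry, on rings of beta subunits (PSMB genes), of which PSMB5, PSMB6 and PSMB7 cut the substrate. The 19S regulatory particle caps the barrel, with a base of ATPases (PSMC genes) that unfold and thread the substrate, and non-ATPase subunits (most PSMD genes) that bind ubiquitin, remove it or hold the cap together. Inhibitors of the catalytic beta subunits are used as cancer drugs.

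Of the 35 members, 34 passed the filter of a mean value of 1 over the 6 libraries. The member left out was PSMA8, a testis-specific alpha subunit, which had 3 reads in Scrambled replicate 1 (a value of 0.0446) and 0 in the other 5 libraries. After DUSP6 knockdown 10 of the 34 members were called higher and 1 was called lower, at a limma adjusted p under 0.05 over all 12862 genes tested. The share called higher was 29.4% of the members against 19.7% of all genes tested, and the share called lower was 2.94% against 24.7%. The remaining 23 members were not called. The log2 fold change was above 0 for 29 members and below 0 for 5, with a median of 0.13 and a range from −0.31 to 0.60, while the median over all genes was −0.01. The values of the 2 groups did not overlap for 13 members that were higher and 4 that were lower with DUSP6 siRNA, where 26.7% and 31.1% of all genes did not overlap in these directions.

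Of the 10 members called higher, 7 belong to the 20S core and 3 to the 19S particle. All 14 core genes tested had a fold change above 0, with a median log2 fold change of 0.35. The 17 genes of the 19S particle, of which 1 was called lower, had a median of 0.09. The difference between the core and the cap was not tested. Of the 10 calls of an increase, 5 were kept in all 9 other ways of processing and after leaving out each of the 6 libraries (PSMA3, PSMA6, PSMB1, PSMB4 and PSMD6), and no call in the other direction appeared in any of them. The count itself moved with 1 library: it was 17 without Scrambled replicate 3, 6 without either DUSP6 KD replicate 1 or DUSP6 KD replicate 2, and 5 without DUSP6 KD replicate 3. The count over all 12862 genes moved too, from 2540 called higher with all 6 libraries to 3183 without Scrambled replicate 3. Without DUSP6 KD replicates 1, 2 and 3 in turn, 1827, 1574 and 1718 genes were called higher. The count called lower was 3 without Scrambled replicate 3, 1 without Scrambled replicate 2 (PSMD5 in place of PSMD8) and 0 without any other library. The count called higher was 19 after quantile normalization, which turned the balance over all genes from 2540 higher and 3179 lower to 2963 higher and 2876 lower.

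**Figure D1:**
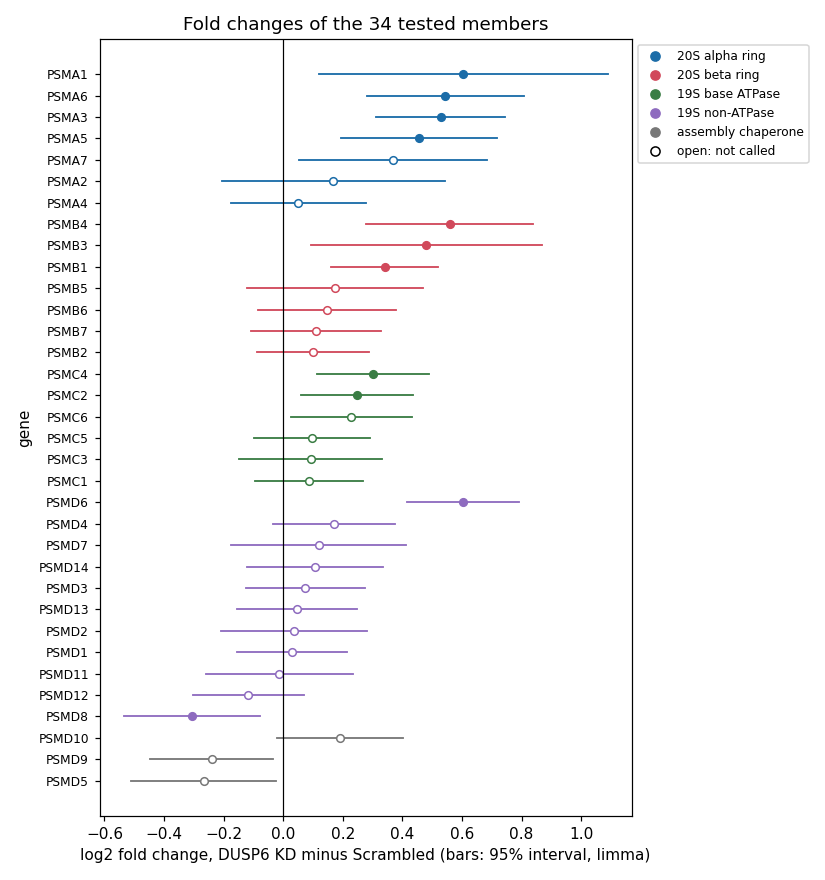
Log2 fold change of each tested member between DUSP6 KD and Scrambled libraries (limma on log2(value + 1), 3 libraries per group), with 95% confidence intervals, coloured by position in the complex, and with open circles for genes not called. The alpha and beta rings lie to the right of 0 throughout, whereas PSMD8, PSMD12, PSMD5, PSMD9 and, marginally, PSMD11 lie to the left.

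For 30 members a promoter was found among 27305 promoters of RefSeq on GRCh38 (250 bases before to 50 after the start), and 4 short motifs were searched in it on both strands: TGACNNNGC (the core of the antioxidant response element, which NFE2L1 and NFE2L2 can bind), CCGGAAG (an ETS site), CCAAT (bound by NF-Y) and GAAA, any 2 bases and GAAA again (as in interferon response elements). None of the motifs contains another, and matches of different motifs were allowed to overlap. CCGGAAG was found in 11 of the 30 promoters (36.7%), against 10.7% of all promoters, in 6 of the 10 non-ATPase genes and 3 of the 6 ATPase genes matched, but in 0 of 4 beta ring genes. TGACNNNGC was found in 7 of 30 (23.3%, against 13.6% of all promoters) and in 0 of the 7 alpha ring genes. CCAAT was found in 15 of 30 (against 35.7%) and the GAAA pair in 2 of 30 (6.67%, against 3.65%). A match says only that these letters are there, and the lack of one says only that they are not in this window. The 120 bases before the start are given for 4 members that were called and for the immunoproteasome gene PSMB10, each 5′ to 3′ on the gene's own strand, with a motif in capitals. PSMB4, chr1:151399453-151399572 on the plus strand, and PSMB10, chr16:67936851-67936970 on the minus strand, each hold the GAAA pair. The other member with the pair, PSMA4, was not called. Of the 3 immunoproteasome promoters, those of PSMB8 and PSMB9 had no match to it in the searched window. PSMC2, chr7:103347523-103347642, and PSMD8, chr19:38374451-38374570, both on the plus strand, hold CCGGAAG in reverse orientation, although PSMC2 was called higher and PSMD8 lower. PSMB3, chr17:38752621-38752740 on the plus strand, holds TGACNNNGC.
PSMB4: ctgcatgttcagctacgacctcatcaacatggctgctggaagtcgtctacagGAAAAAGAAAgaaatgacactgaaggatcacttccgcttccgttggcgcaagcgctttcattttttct
PSMB10: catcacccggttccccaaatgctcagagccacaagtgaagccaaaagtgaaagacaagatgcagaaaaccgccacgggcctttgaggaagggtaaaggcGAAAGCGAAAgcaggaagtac
PSMC2: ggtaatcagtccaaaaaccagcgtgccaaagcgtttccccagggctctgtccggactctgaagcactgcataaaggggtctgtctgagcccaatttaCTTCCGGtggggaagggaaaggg
PSMD8: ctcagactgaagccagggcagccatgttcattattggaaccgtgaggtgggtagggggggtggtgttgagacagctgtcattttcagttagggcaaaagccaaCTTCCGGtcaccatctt
PSMB3: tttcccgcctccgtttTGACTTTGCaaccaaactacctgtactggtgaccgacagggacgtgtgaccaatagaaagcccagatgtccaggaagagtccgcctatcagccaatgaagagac

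In the alpha ring, 4 of 7 tested genes were called higher (57.1%, against 19.7% of all genes) and the median log2 fold change was 0.46. PSMA3 was 136, 122 and 149 in the Scrambled libraries and 196, 191 and 200 in the DUSP6 KD libraries. Its mean rose by 44.2%, from 136 ± 13.7 to 196 ± 4.78 (SD, n = 3 each), which is 0.53 on the log2 scale (SE 0.10, adjusted p = 0.00231). PSMA6 was 136, 127 and 171 against 208, 204 and 217, and its log2 fold change was 0.54 (SE 0.12, adjusted p = 0.00544). Every DUSP6 KD library exceeded every Scrambled library for both genes. PSMA5 rose by 0.46 on the log2 scale (SE 0.12, adjusted p = 0.0118), and this call was lost without DUSP6 KD replicate 3, when the adjusted p was 0.0511. PSMA1 had the largest estimate of all members, 0.60, and also the widest scatter, with 61.8, 38.6 and 78.7 in the Scrambled libraries against 83.0, 92.4 and 87.9 in the DUSP6 KD libraries. Its adjusted p was 0.0453 (SE 0.21) and was 0.0601 to 0.142 when any library but Scrambled replicate 3 was left out, the estimate was 0.33 without Scrambled replicate 2, and edgeR on the recovered reads gave an adjusted p of 0.0620.

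The other 3 alpha subunits were not called. PSMA7 was 142, 124 and 185 against 183, 203 and 188 (log2 fold change 0.37, 95% confidence interval 0.05 to 0.68, adjusted p = 0.0580), so that its groups overlapped by the highest Scrambled library. PSMA2 reached 124 in Scrambled replicate 3, above the 101 to 105 of the DUSP6 KD libraries, and its fold change of 0.17 had an interval from −0.20 to 0.54. Without Scrambled replicate 3 both were called higher, PSMA7 with a log2 fold change of 0.53 (adjusted p = 0.00209) and PSMA2 with 0.38 (adjusted p = 0.00541). PSMA4 had a fold change of 0.05 with an interval from −0.18 to 0.28, within which an increase as large as that of PSMA3 does not lie.

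In the beta ring, 3 of 7 genes were called higher (42.9%, against 19.7% of all genes) and the median log2 fold change was 0.17. The 3 called genes, PSMB1, PSMB3 and PSMB4, encode subunits without a catalytic site. PSMB4 was 165, 156 and 213 in the Scrambled libraries and 248, 279 and 256 in the DUSP6 KD libraries. Its mean rose from 178 ± 30.7 to 261 ± 16.0 (SD, n = 3 each), which is 46.4% and a log2 fold change of 0.56 (SE 0.12, adjusted p = 0.00632). PSMB1 was close to constant among the Scrambled libraries at 115, 115 and 119 and was 144, 154 and 145 with DUSP6 siRNA, an increase of 26.9% (adjusted p = 0.00838). PSMB3 was 68.4, 61.8 and 104 against 105, 112 and 103. Scrambled replicate 3 exceeded 1 of the DUSP6 KD libraries for PSMB3, whose log2 fold change of 0.48 (SE 0.17, adjusted p = 0.0472) had an adjusted p of 0.0903 to 0.150 when any library but Scrambled replicate 3 was left out and of 0.0673 with edgeR.

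None of the 3 catalytic subunits was called. PSMB5, which carries the chymotrypsin-like site and is the main target of bortezomib, was 116, 121 and 165 in the Scrambled libraries and 148, 154 and 147 in the DUSP6 KD libraries (log2 fold change 0.17, SE 0.13, interval −0.12 to 0.47, adjusted p = 0.302). PSMB6, with the caspase-like site, was 57.8, 55.6 and 68.7 against 64.3, 69.7 and 67.2 (0.15, SE 0.10, interval −0.09 to 0.38, adjusted p = 0.270). PSMB7, with the trypsin-like site, was 62.6, 63.9 and 74.4 against 69.1, 73.7 and 73.9 (0.11, SE 0.10, interval −0.11 to 0.33, adjusted p = 0.375). In all 3 genes the highest Scrambled library was replicate 3, and it lay above at least 1 DUSP6 KD library. Without that library PSMB5 was called with a log2 fold change of 0.33 (adjusted p = 0.00687) and PSMB6 with 0.24 (adjusted p = 0.0376). The other noncatalytic gene, PSMB2, had a fold change of 0.10 (interval −0.09 to 0.29).

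The immunoproteasome subunits that can take the place of the catalytic ones were called higher, PSMB8 by 3.10 on the log2 scale (adjusted p = 4.88e-06), PSMB9 by 2.22 (adjusted p = 6.64e-06) and PSMB10 by 1.26 (adjusted p = 7.18e-04). Per kilobase of transcript, PSMB8 was 0.911 to 1.51% of PSMB5 in the Scrambled and 9.73 to 15.8% in the DUSP6 KD libraries, PSMB9 was 0.140 to 0.417% and 4.35 to 5.98% of PSMB6, and PSMB10 was 11.2 to 15.9% and 26.0 to 37.6% of PSMB7, where PSMB8 and PSMB9 are uncertain because 17.3% and 5.21% of their exon sequence overlaps other genes. PSMB9 had 5 to 20 reads in the Scrambled libraries, where adding 1 makes its fold change smaller: the ratio of the mean values was 25.6 for PSMB9, 13.5 for PSMB8 and 2.52 for PSMB10, so that the order of PSMB8 and PSMB9 depends on the scale.

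Among the ATPases of the 19S base, PSMC2 and PSMC4 were called higher (33.3%, against 19.7% of all genes), and the median of the 6 genes was 0.16. PSMC4 was 137, 140 and 150 in the Scrambled libraries and 173, 183 and 171 in the DUSP6 KD libraries, a rise of 23.4% (log2 fold change 0.30, SE 0.08, adjusted p = 0.0170). PSMC2 was 67.1, 68.9 and 69.8 against 77.5, 85.0 and 82.4, a rise of 0.25 (SE 0.08, adjusted p = 0.0386). Both increases were small but larger than the spread of either group, and with 2 libraries left in a group they were not always called: the adjusted p of PSMC4 went up to 0.0708, over 0.05 without each DUSP6 KD library in turn, and that of PSMC2 up to 0.146, over 0.05 without Scrambled replicate 1 or any DUSP6 KD library. PSMC6 was 100, 91.3 and 92.9 against 103, 118 and 112, also without overlap, with a fold change of 0.23 (interval 0.02 to 0.43, adjusted p = 0.0660). PSMC1 (0.09), PSMC3 (0.09) and PSMC5 (0.10) were not called, although PSMC3 was called without Scrambled replicate 3 (0.20, adjusted p = 0.0410), and PSMC1 and PSMC5 are uncertain because 76.1% and 15.3% of their exon sequence overlaps the antisense genes NRDE2 and FTSJ3. Of the tested members, 15 also have named pseudogenes with which reads may be shared.

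Of the 11 non-ATPase subunits, 1 was called higher and 1 lower (9.09% each, against 19.7% and 24.7% of all genes). These 2 were the clearest increase and the only called decrease among the members. PSMD6, a structural subunit of the lid of the 19S particle, was 64.8, 64.4 and 63.4 in the Scrambled libraries and 94.7, 104 and 95.5 in the DUSP6 KD libraries. Its mean rose by 52.7%, from 64.2 ± 0.705 to 98.0 ± 5.10 (SD, n = 3 each), with a log2 fold change of 0.60 (SE 0.08, adjusted p = 5.79e-04), the smallest adjusted p among the members. PSMD8, another lid subunit, was 203, 188 and 163 against 141, 153 and 151. Its mean went from 185 ± 20.3 to 149 ± 6.26 (SD, n = 3 each), and it fell by 0.31 on the log2 scale (SE 0.10, adjusted p = 0.0347). The groups did not overlap for PSMD8, but when any library but Scrambled replicate 3 was left out the adjusted p was 0.0693 to 0.130, and after quantile normalization the fold change was −0.15 (adjusted p = 0.235). The 2 lid genes thus differed between the groups in opposite directions. PSMD6 lies on chromosome 3 from 64010550 to 64024010 and PSMD8 on chromosome 19 from 38374563 to 38383850 (GENCODE on GRCh38). An exact permutation test over the libraries gave p = 0.1 for both, the smallest value that 3 against 3 allows.

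The other 9 non-ATPase subunits were not called. PSMD14, the deubiquitinase that removes the ubiquitin chain before the substrate enters, was 146, 131 and 162 in the Scrambled libraries and 148, 166 and 158 in the DUSP6 KD libraries (log2 fold change 0.11, SE 0.10, interval −0.12 to 0.33, adjusted p = 0.411). PSMD1 and PSMD2, the largest scaffold subunits and docking sites for ubiquitin receptors, had fold changes near 0. PSMD1 was 167, 158 and 167 against 163, 176 and 164 (0.03, SE 0.08, interval −0.16 to 0.22, adjusted p = 0.791). PSMD2 was 445, 416 and 532 against 461, 495 and 466 (0.04, SE 0.11, interval −0.21 to 0.28, adjusted p = 0.802). For these 3 genes the groups overlapped, and the sign of PSMD1 and PSMD2 changed when DUSP6 KD replicate 2 (PSMD1, −0.0054) or Scrambled replicate 2 (PSMD2, −0.038) was left out. The ubiquitin receptor PSMD4 was 123, 117 and 137 against 139, 147 and 138, without overlap but at an adjusted p of 0.155, and was called higher without Scrambled replicate 3 (log2 fold change 0.23, adjusted p = 0.0323). PSMD12 was 280, 266 and 254 against 242, 248 and 246, without overlap in the other direction, at an adjusted p of 0.271. PSMD3 (0.07), PSMD7 (0.12), PSMD11 (−0.01) and PSMD13 (0.05) had adjusted p values of 0.478 to 0.936.

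PSMD5, PSMD9 and PSMD10 share the PSMD name but are chaperones that leave the base once it is assembled. PSMD5 was 236, 184 and 191 in the Scrambled libraries and 166, 174 and 164 in the DUSP6 KD libraries (log2 fold change −0.27, SE 0.11, interval −0.51 to −0.02, adjusted p = 0.0706). PSMD9 was 38.4, 39.9 and 36.5 against 33.8, 31.5 and 31.4 (−0.24, SE 0.09, interval −0.45 to −0.03, adjusted p = 0.0579). PSMD10, also known as gankyrin, was 44.1, 49.1 and 51.5 against 53.7, 57.0 and 54.7 (0.19, SE 0.09, interval −0.02 to 0.40, adjusted p = 0.125). The groups did not overlap for any of the 3, lower with DUSP6 siRNA for 2 of them and higher for PSMD10, and none passed the threshold. Without Scrambled replicate 3 all 3 were called, at adjusted p values of 0.0441, 0.0293 and 0.0487, and PSMD5 was also called without Scrambled replicate 2 (adjusted p = 0.0396).

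**Figure D2:**
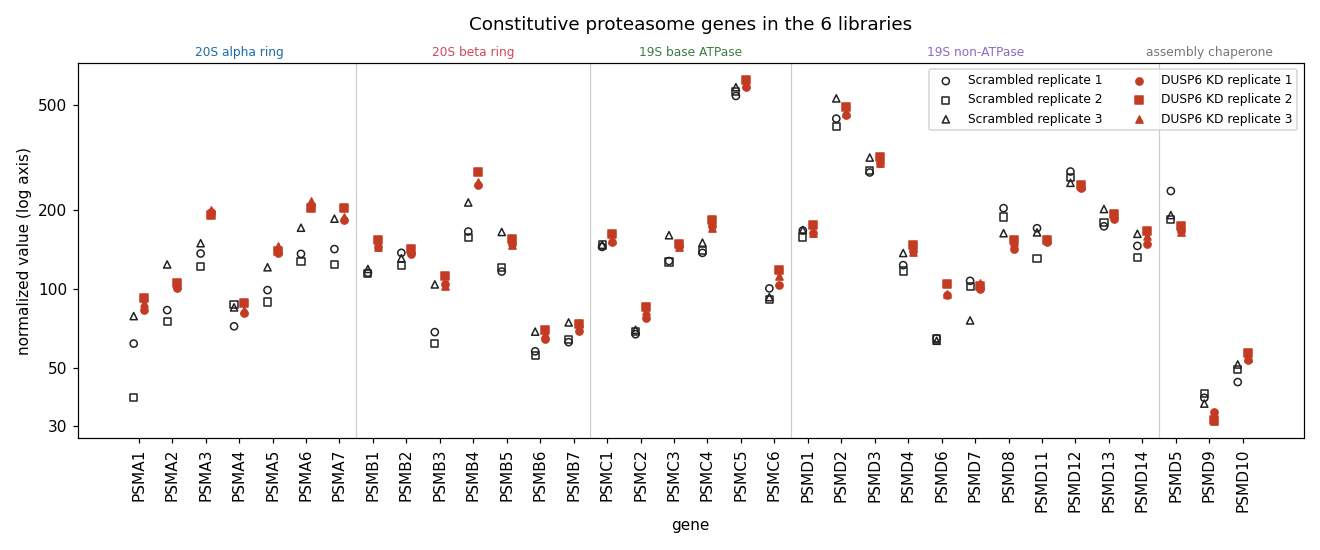
Normalized value of the tested members in each of the 6 libraries, by position in the complex (value axis on a log scale, 1 point per library). Scrambled libraries spread more than DUSP6 KD libraries for 28 of the 34 members, as for 78.5% of all genes tested. The points of PSMC5 and PSMD2 are the highest as plotted, where values are not divided by transcript length.

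Most members varied more among the Scrambled than among the DUSP6 KD libraries (28 of 34), as did 78.5% of all genes tested. The median SD of log2(value + 1) was 0.15 with Scrambled siRNA and 0.05 with DUSP6 siRNA, and over all genes tested it was 0.17 and 0.08. Scrambled replicate 3 stood apart for the members: it was the highest Scrambled library for 24 of 34, against 38.3% of all genes. The median difference of the DUSP6 KD mean from single Scrambled libraries was 0.20 and 0.23 for replicates 1 and 2 and 0.04 for replicate 3 on the log2 scale. Scrambled replicates 1 and 2 lay below all DUSP6 KD libraries for 26 and 28 members, and replicate 3 lay below them for 15, within their range for 8 and above them for 11. Single libraries were not counted in this way over all genes, so these counts have no background. For the whole groups, 26.7% of all genes did not overlap and were higher with DUSP6 siRNA, and 31.1% did not overlap and were lower. Scrambled replicate 3 was also the most deeply sequenced library, and the part of depth or of its siRNA in this was not tested.

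The balance between core and cap also differed between the libraries. The mean log2 value of the 14 core genes minus that of the 17 genes of the 19S particle was −0.73, −0.78 and −0.46 in Scrambled replicates 1 to 3 and −0.43, −0.44 and −0.43 in the DUSP6 KD libraries. The DUSP6 KD libraries thus lay close to each other by this measure, and Scrambled replicate 3 lay nearer to them than to the other Scrambled libraries. By ring, the median deviation of the alpha genes from their mean over all 6 libraries was −0.25, −0.42 and 0.04 with Scrambled siRNA and 0.19, 0.23 and 0.28 with DUSP6 siRNA. That of the non-ATPase genes was −0.05, −0.08 and 0.04 against −0.02, 0.08 and 0.01, so these groups overlapped.

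**Figure D3:**
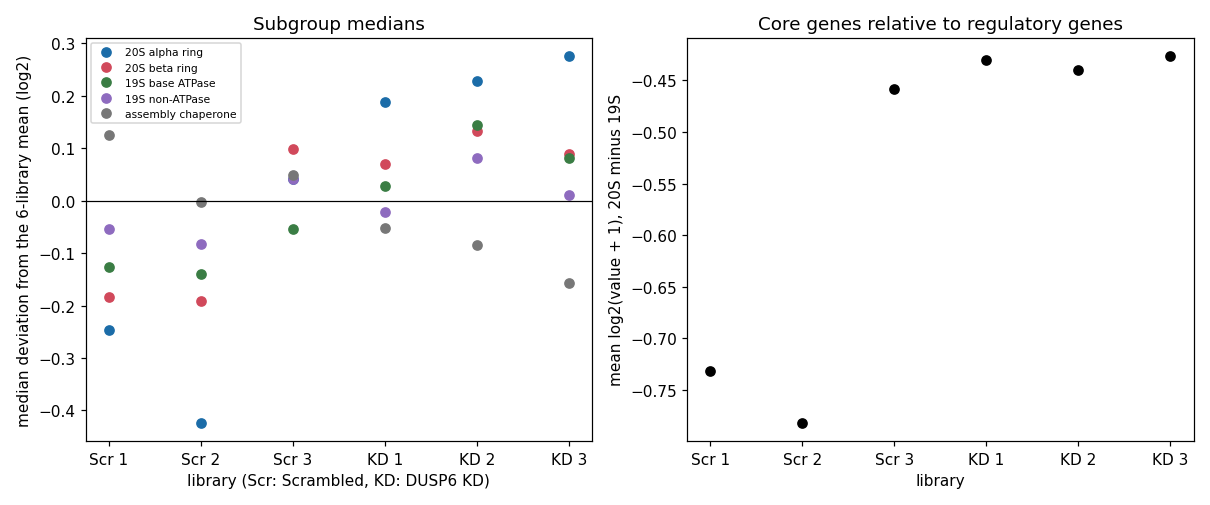
Left, median deviation of log2(value + 1) from each gene's mean over the 6 libraries, by position in the complex and library, and right, mean log2(value + 1) of core genes minus that of 19S genes in each library. On the left, alpha ring genes range from −0.42 in Scrambled replicate 2 to 0.28 in DUSP6 KD replicate 3, and the median of the 3 chaperones, of which PSMD5 and PSMD9 were lower and PSMD10 higher with DUSP6 siRNA, goes from 0.13 in Scrambled replicate 1 to −0.16 in DUSP6 KD replicate 3.

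Levels were compared between genes only per kilobase of the canonical transcript. With Scrambled siRNA the tested members had a median of 70.9 per kb and ranged over 30.2-fold, from 14.0 for PSMD9 to 424 for PSMC5. The level of PSMC5 is uncertain because 15.3% of its exon sequence overlaps an antisense gene. Within the core, the level per kb ranged 10.5-fold from 18.6 for PSMA4 to 194 for PSMB4, although an assembled core holds the same number of each alpha and beta subunit. The non-ATPase subunits ranged 3.96-fold, from 40.3 for PSMD11 to 159 for PSMD2. The catalytic subunits were at 128 (PSMB5), 73.7 (PSMB6) and 68.1 (PSMB7) per kb with Scrambled siRNA and at 143, 81.4 and 73.4 with DUSP6 siRNA. With DUSP6 siRNA the median over the members was 77.4 per kb, and PSMD9 and PSMC5 were again the lowest and the highest, at 11.8 and 454. These levels depend on the transcript taken as canonical, since a gene read from a shorter transcript has a higher value per kb.

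The fold change of the members went with the length of their transcripts, which their choice by symbol did not use. Spearman's rho between the log2 fold change and the length was −0.62 over the 34 members and −0.04 over the 12347 genes tested with a known length, as a description over genes that share the same 6 libraries. Of 10 members of at most 1.2 kb, 6 were called higher (60%) and the median log2 fold change was 0.42, while 20.3% of all 1284 genes in this class were called higher, with a median of 0.02. Of the 11 members over 1.2 and up to 2 kb, 2 were called higher (18.2%, median 0.12), near the 19.1% of all 1862 genes in that class. Of the 13 members over 2 kb, 2 were called higher (15.4%, median 0.05), against 19.8% of all 9201 genes in that class. A relation of the same sign was seen among the Scrambled libraries alone, but not independently, since both measures subtract Scrambled replicates 1 and 2. Replicate 3 minus the mean of replicates 1 and 2 had a rho with length of −0.55 over the members and −0.20 over all genes, and its median in the shortest class was 0.39 for members and 0.10 for all genes. The part of length in the values of core and cap was not tested.

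**Figure D4:**
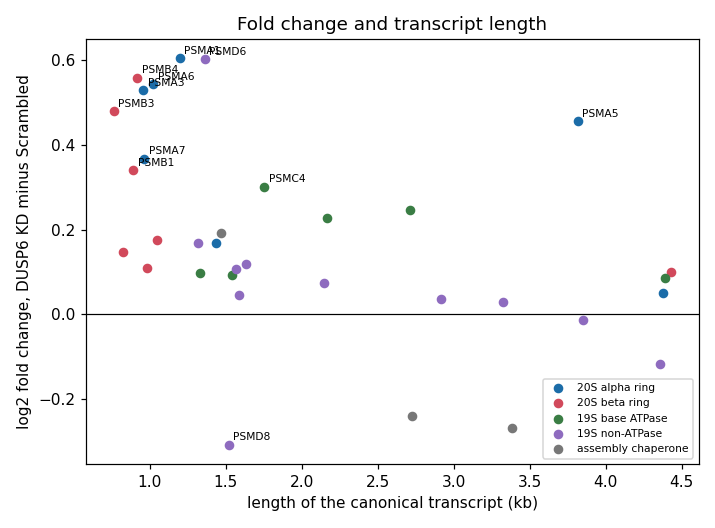
Log2 fold change of each tested member, DUSP6 KD minus Scrambled, against the length of the canonical transcript in kb, coloured by position in the complex. The points fall with length, with a Spearman's rho of −0.62 over 34 members.

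Around the subunits, a list of 40 genes for assembly, activation, transcription and substrate delivery was measured, all of which passed the filter. After DUSP6 knockdown 9 were called higher (22.5%) and 10 lower (25.0%), near the 19.7% and 24.7% of all genes, and the median log2 fold change was −0.08. The count called higher was 4 or 5 when any library but Scrambled replicate 3 was left out. Of the 6 core and base assembly factors 4 were called higher: PSMG4 (0.67, adjusted p = 0.00320), PSMG2 (0.45, adjusted p = 0.00685), POMP (0.37, adjusted p = 0.0445) and PSMG1 (0.35, adjusted p = 0.0378), where the exons of PSMG4 overlap an antisense gene in part. POMP, which guides the closing of the half-made core, was 81.5, 72.2 and 105 in the Scrambled libraries and 107, 110 and 113 in the DUSP6 KD libraries, and was not called without any 1 library other than Scrambled replicate 3 (adjusted p up to 0.127). PSMG4 was 4.33, 5.02 and 6.12 against 9.04, 8.29 and 8.91, and was called in every such case. PSMG1 was not called without Scrambled replicate 2 or any DUSP6 KD library (adjusted p up to 0.118).

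PSME1 and PSME2, the 2 subunits of the PA28 cap that interferon induces, were called higher. PSME1 was 66.5, 60.9 and 77.1 in the Scrambled libraries and 122, 107 and 118 in the DUSP6 KD libraries (log2 fold change 0.76, adjusted p = 6.57e-04). PSME2 was 59.7, 48.5 and 75.1 against 109, 90.5 and 112 (0.77, adjusted p = 0.00418). For both genes every DUSP6 KD library exceeded every Scrambled library, although 8.18% of the exon sequence of PSME2 overlaps other genes. The other activators, PSME3 (5.82% of its exon sequence overlapping other genes) and PSME4, were not called. PSMF1, which can inhibit the core, was 217, 147 and 195 against 136, 120 and 138 and fell by 0.49 on the log2 scale (adjusted p = 0.0205), although not without Scrambled replicate 1 (adjusted p = 0.0639) or DUSP6 KD replicate 2 (adjusted p = 0.0905), and 6.56% of its exon sequence overlaps other genes.

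The group of 6 genes for the transcription of subunits, its processing and nuclear import also held MIDN, a gene for substrate delivery. In this group 0 genes were called higher and 3 lower (DDI2, NGLY1 and MIDN). Over all genes tested, 19.7% were called higher and 24.7% lower. NFE2L1, the transcription factor that drives proteasome genes when the proteasome is inhibited, was 371, 401 and 362 in the Scrambled libraries and 333, 363 and 339 in the DUSP6 KD libraries (log2 fold change −0.13, interval −0.33 to 0.07, adjusted p = 0.252), and its sign turned to 0.14 after quantile normalization. DDI2, the protease that cuts NFE2L1 into its active form, was 18.8, 16.5 and 16.3 against 11.2, 15.4 and 12.2 (−0.39, adjusted p = 0.0412), of which 18.0% of the exon sequence overlaps other genes. The adjusted p of DDI2 was up to 0.165 when 1 library was left out, and over 0.05 without Scrambled replicate 1 or 2 or DUSP6 KD replicate 1 or 3. NGLY1, which strips the glycans of NFE2L1, fell by 0.52 (adjusted p = 0.00246, with 6.22% of its exon sequence shared with other genes) and MIDN, which brings substrates without ubiquitin to the proteasome, fell by 0.50 (adjusted p = 0.0117, and 0.0588 without DUSP6 KD replicate 2).

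The largest changes on the list were decreases of shuttles that carry ubiquitinated proteins to the proteasome. RAD23B was 281, 245 and 271 in the Scrambled libraries and 81.0, 57.1 and 73.9 in the DUSP6 KD libraries. Its mean went from 266 ± 18.5 to 70.6 ± 12.3 (SD, n = 3 each), and it fell by 1.91 on the log2 scale (adjusted p = 1.47e-05). UBQLN4 was 199, 172 and 181 against 71.0, 54.2 and 62.1 and fell by 1.55 (adjusted p = 2.12e-05). UBQLN1 was 188, 163 and 172 against 112, 109 and 114 and fell by 0.63 (adjusted p = 5.72e-04). These 3 genes were called lower in every setting and with any library left out. UBQLN2 was also called lower, by 0.54 (adjusted p = 0.0105), while the unfoldase VCP was called higher by 0.30 (adjusted p = 0.0489). Of the proteasome-associated proteins, the deubiquitinase UCHL5 fell by 0.55 (adjusted p = 0.00343, with 6.29% of its exon sequence shared with other genes). Of the ubiquitin and E1 genes, UBA6 was called higher by 0.30 (adjusted p = 0.0465). VCP and UBA6 were each not called when any library but Scrambled replicate 3 was left out, at adjusted p values up to 0.145 and 0.143.

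**Figure D5:**
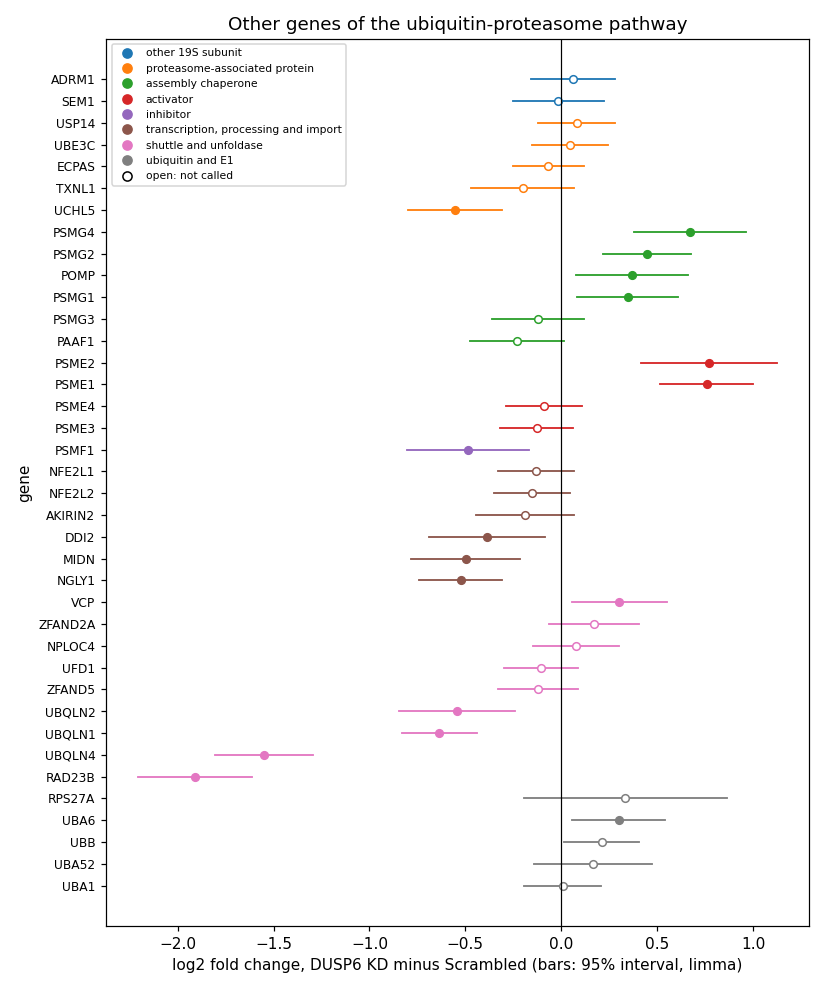
Log2 fold change of 38 of the 40 genes around the proteasome between DUSP6 KD and Scrambled libraries (limma, 3 libraries per group), coloured by role, with 95% confidence intervals and open circles for genes not called. RAD23B and UBQLN4 lie farthest to the left at −1.91 and −1.55, and PSME2 and PSME1 farthest to the right at 0.77 and 0.76.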

How the data were processed

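The authors aligned the reads of 6 stranded mRNA libraries to hg38, assigned them to RefSeq genes and deposited a normalized signal per gene and library. The submitters' processing notes name bcl2fastq and edgeR. The normalization is not named, but 100% of the deposited values were whole multiples (within 0.01) of 1 step per library, and the steps matched edgeR's TMM factors. Groups came from the titles. The values were taken as log2(value + 1), and limma 3.58.1 (R 4.3.3, eBayes with a trend, two-sided) was run on the 12862 genes whose mean reached 1. P-values were adjusted by Benjamini-Hochberg over these genes, with 0.05 as the threshold. Depth was 45546981 to 85729785 reads, so the spread between libraries, not counting error, set the precision. Adding 1 makes fold changes of low genes smaller.

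The members and lists were chosen with earlier results of these data known. Given with the value in every library were, by rule, the catalytic subunits, PSMD14, PSMD1, PSMD2, the chaperones PSMD5, PSMD9 and PSMD10, the 6 called members with the largest fold change in each direction, members under the filter, and, of the list of 40, NFE2L1, DDI2, POMP, PSME1, PSME2, PSMF1 and the 3 largest calls in each direction. Values of other members, among them PSMA5, PSMA7, PSMB1, PSMC2, PSMC4, PSMC6, PSMD4 and PSMD12, were chosen after they were seen. Lengths and overlaps came from GENCODE 44 on GRCh38, with genes over 5% exon overlap reported as uncertain, since strand use in the counting is not stated. The other settings were no filter, a mean of at least 10, a pseudocount of 0.1, quantile normalization, scaling by the median of ratios, eBayes without a trend, the replicate number as a block, edgeR 4.0.16 and DESeq2 1.42.0 on the recovered reads, and leaving out each library. On simulated reads for 12862 genes, 29% of 100 genes changed by 0.5 on the log2 scale and 99% of 100 changed by 1 were called, with 10 unchanged genes called. Many more genes were called in the data (2540 higher and 3179 lower) than were changed in the simulation. The adjusted p depends on that number, so the shares recovered do not carry over to the data. Values of 3 genes of the marker list and the list of 40 are not reported here.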

Additional observations from a re-analysis of the deposited data

How the results depend on the processing

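DUSP6, RAD23B, UBQLN1 and UBQLN4 (lower) and PSMA3, PSMA6, PSMB1, PSMB4 and PSMD6 (higher) were called in all 9 alternatives and with each library left out. Quantile normalization called 19 members higher and 0 lower, with a median log2 fold change of 0.28, turned NFE2L1 to 0.14 and gave 2963 genes higher and 2876 lower over all genes. Without a filter 8 members were higher and 0 lower, and 4 of the 40 surrounding genes were higher. With 1 library left out, 5 to 17 members were higher and 0 to 3 lower, the median was 0.10 to 0.21, and 4 to 11 surrounding genes were higher and 8 to 11 lower, while PSMD1 was −0.0054 (without DUSP6 KD replicate 2) to 0.050 and PSMD2 −0.038 (without Scrambled replicate 2) to 0.14. Over all genes, 1574 to 3183 were then called higher and 2306 to 3581 lower. The cause of these shifts was not tested, beyond the smaller groups. On the recovered reads edgeR called 2459 genes higher and 3245 lower, 8 members among the first and 1 among the second, and DESeq2 called 12 and 1. The replicate numbers did not pair the samples (correlations of deviations 0.00500, 0.0868 and −0.0764), and with the replicate block 10 members were higher, 9 of them shared, and 1 was lower. Depth limited PSMA8, with at most 3 reads in a library, and PSMB9, with 5 to 20 reads in the Scrambled libraries.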
